A study of Mus musculus with 3 samples.

Results

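Fc gamma receptors, the adaptor chains that signal for them and the kinases and phospholipase downstream were followed in the cytosolic RNA of stimulated macrophages. The set held 9 of the 55536 annotated genes. They were taken by name for their role: Fcgr1, Fcgr2b, Fcgr3 and Fcgr4 (receptors for IgG), Fcer1g and Tyrobp (adaptors), Syk and Lyn (tyrosine kinases) and Plcg2 (a phospholipase). The cells were bone marrow-derived macrophages (BMDM) of C57BL/6J mice, which are grown from marrow progenitors. They had received Lipid A, the part of bacterial lipopolysaccharide that triggers Toll-like receptor 4, at 100 ng/ml for 30 min. All 3 libraries belonged to this 1 group and cite the same donor record, so the spread between them may be technical, and neither unstimulated cells nor another cell fraction was analysed here. The results are therefore levels, the make-up of the pathway and the spread between libraries, and hold no comparison with cells without Lipid A.

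When immune complexes bind an activating Fc gamma receptor, tyrosines in the immunoreceptor tyrosine-based activation motif (ITAM) of its adaptor are phosphorylated by Src-family kinases such as Lyn. Syk docks on the phosphorylated motif and activates Plcg2 and other effectors, which leads to phagocytosis, calcium release and cytokine production. Fcgr2b instead carries an inhibitory motif (ITIM) that recruits the lipid phosphatase encoded by Inpp5d, and macrophages are known for carrying activating and inhibitory receptors side by side.

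Genes received 23403511, 50435192 and 35785886 rounded counts in replicates 1, 2 and 3. A count of 0 allows 3 counts, which is 0.128, 0.0595 and 0.0838 CPM (counts scaled by library size, not divided by length) in these libraries. Nuclear protein-coding genes held 22.3%, 34.4% and 24.3% of the TPM (counts divided by transcript length and scaled to a fixed total in each library), so the TPM of messenger RNAs lay higher in replicate 2. All 10 macrophage markers averaged 10 TPM or more, led by Lyz2 at 5224 and Cd68 at 742 TPM, and their sums were 6247, 8273 and 6228 TPM. None of 11 natural killer and T cell markers reached 1 TPM (highest Lck at 0.0700 and Zap70 at 0.0233), nor did any of 9 mast cell and basophil markers (highest Kit at 0.443 and Prss34 at 0.0700). Of 9 B cell markers, Ighm at 5.15 TPM passed 1 TPM, and Cd79b followed at 0.893. Dendritic cell markers passed 1 TPM for 1 of 8 (Batf3 at 1.52, then Ccr7 at 0.527). Neutrophil markers passed it for 5 of 11, led by S100a9 at 17.3 and S100a8 at 10.1 TPM, with sums of 17.4, 55.6 and 37.8 TPM. Stromal markers, led by Col1a1 and Col1a2 at means of 2.99 and 2.22 TPM, summed to 27.2 TPM in replicate 1 against 0.0600 and 0.160 TPM in replicates 2 and 3, so replicate 1 stood apart in them. Bulk RNA cannot tell fewer cells of a type from less RNA per cell.

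All 9 genes were present well above these floors, with mean levels between 19.1 and 844 TPM. Together they made up 0.829%, 0.755% and 0.699% of the TPM of nuclear protein-coding genes. The adaptors Tyrobp and Fcer1g alone held 70.6%, 67.8% and 68.5% of the summed TPM of the set in replicates 1, 2 and 3. Among 22015 nuclear protein-coding genes, Tyrobp ranked 22 and Fcer1g 44, while Plcg2, the lowest member, ranked 2227. The order by mean TPM was Tyrobp, Fcer1g, Fcgr3, Fcgr2b, Syk, Fcgr1, Fcgr4, Lyn and Plcg2, and each neighbouring pair stood in this order in 3 of 3 libraries. The smallest step was that of Fcgr1 over Fcgr4, 0.07 ± 0.06 log2 TPM (SD, n = 3). Every step exceeded the SD of its within-library differences, although an exact sign-flip permutation test over 3 libraries cannot give a p below 0.25. In the authors' other transcript estimates the step of Syk over Fcgr1 held in 2 of 3 libraries, and the remaining steps in 3 of 3. These levels sum all transcripts of a gene. The coding transcript of Fcgr1 alone had 42.2, 56.1 and 48.0 TPM in replicates 1, 2 and 3. Fcgr4 had 45.3, 57.0 and 46.6 TPM. In the other estimates the same transcript had 15.06, 33.52 and 10.89 TPM, against 17.45, 34.37 and 10.93 TPM of Fcgr4. The step of Fcgr1 over Fcgr4 thus did not hold throughout for coding RNA alone.

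**Figure D1:**
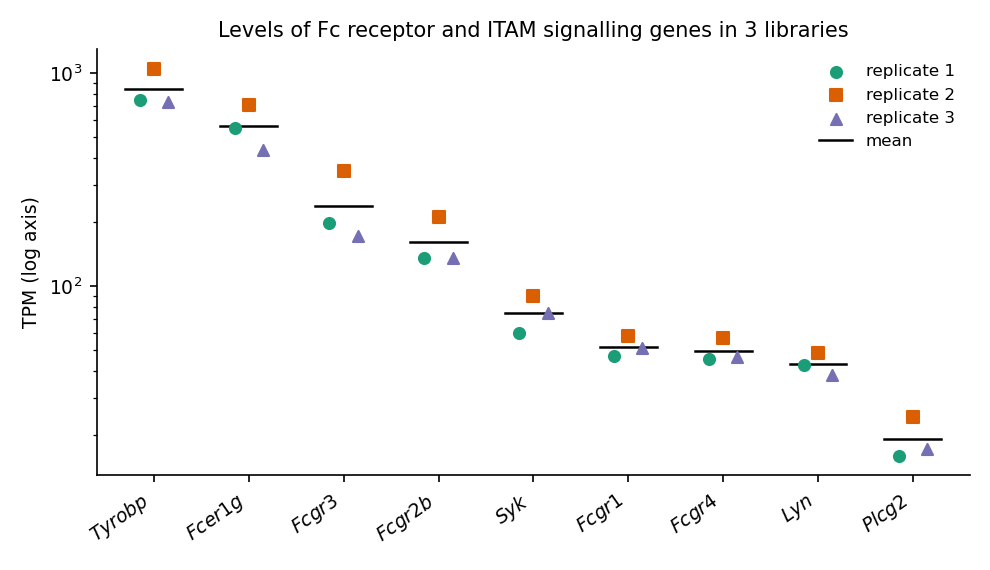
TPM (log axis) of the 9 genes in each of 3 libraries, ordered by mean, with coloured points for replicates and a black line for the mean. Tyrobp and Fcer1g lie above the others in every library, Plcg2 below, and replicate 2 is the highest point of each gene.

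Among the activating receptors, Fcgr3, the low-affinity receptor for IgG complexes (ENSMUSG00000059498.13, mm10 chr1:171051174-171064935, minus strand), was the most abundant. It had 197, 347 and 172 TPM in replicates 1, 2 and 3, a mean of 239 ± 94.4 (SD, n = 3). Replicate 2 stood above the others on this scale, as it did for every gene of the set. Scaled to nuclear protein-coding genes, Fcgr3 had 885, 1009 and 708 TPM, so replicates 1 and 3 did not lie close together there. Fcgr1, the high-affinity receptor that binds single IgG molecules (ENSMUSG00000015947.10, chr3:96282909-96293969, minus strand), had 47.1, 58.1 and 51.1 TPM, a mean of 52.1 ± 5.54. Fcgr4, a receptor for IgG2a and IgG2b (ENSMUSG00000059089.4, chr1:171018920-171029761, plus strand), had 45.3, 57.0 and 46.6 TPM, a mean of 49.6 ± 6.40. Fcgr1 and Fcgr4 thus spanned nearly the same range of TPM across libraries, and the lowest Fcgr3 value was far above the highest value of either.

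The inhibitory receptor Fcgr2b (ENSMUSG00000026656.15, chr1:170958617-170976547, minus strand) had 136, 211 and 136 TPM, a mean of 161 ± 43.6 (SD, n = 3). Set against Fcgr3, it was lower in every library, with a difference of -0.53 ± 0.19 log2 TPM, but 0.28 on log2 CPM, which is not divided by length. The 3 activating receptors summed to 290, 462 and 270 TPM, against the 136, 211 and 136 TPM of Fcgr2b. Their ratio was 2.13, 2.18 and 1.99, a difference of 1.07 ± 0.07 log2 TPM, against 0.45 ± 0.10 on log2 CPM. These 6 differences between genes of set roles kept their sign in 3 of 3 libraries, and each had p = 0.25 in a two-sided exact permutation of signs, the smallest value that 3 libraries allow, and 0.25 after Benjamini-Hochberg adjustment over the 6.

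The motif by which Fcgr2b inhibits lies in a single exon, and its codons 317 to 322 (of the longest transcript, chr1:170961071-170961088, minus strand, mm10) are shown with the tyrosine codon in capitals.
Fcgr2b ITIM: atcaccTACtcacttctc
The same search, applied to the coding sequences of the 4 receptors, matched 3 times in Fcgr1, once in Fcgr4 and not in Fcgr3; a match is a description of the letters and says nothing of where in the protein the motif lies.

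Reads of Fcgr2b and Fcgr3 can be hard to assign, since both genes lie on chromosome 1 and share coding sequence. Over 509 aligned coding bases the pair was 96.5% identical, while the other pairs of Fc gamma receptors were 59.3% to 66.7% identical over 472 to 737 bases. The longest coding run that both share, 129 bases over 2 exons, lies at chr1:170966674-170968081 in Fcgr2b and chr1:171054167-171057792 in Fcgr3, on the minus strand of each, and is shown because a read inside it fits either gene.
Run shared by Fcgr2b and Fcgr3: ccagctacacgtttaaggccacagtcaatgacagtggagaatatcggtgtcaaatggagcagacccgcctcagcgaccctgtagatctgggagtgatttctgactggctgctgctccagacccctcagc
Of the 1317 windows of 31 bases in the main Fcgr3 transcript, 233 (17.7%) occurred in Fcgr2b transcripts. Of the 3514 in the longest Fcgr2b transcript, 529 (15.1%) occurred in transcripts of 84 other genes. Among these, 233 occurred in another gene of the set and 234 in Ntrk3. The deposited posterior SD of the counts was 2.38, 2.95 and 2.60 counts for each of these genes, against 10288 to 28610 expected counts of Fcgr3. Fcgr1 and Fcgr4 had a posterior SD of 0.

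Fcgr2b was represented mostly by the coding transcript without a 141-base cassette exon in the part that encodes the cytoplasmic tail. This transcript (coding length 879 bases) took 56.5%, 69.3% and 59.9% of the TPM of the gene in replicates 1, 2 and 3, a mean of 61.9% ± 6.64 (SD, n = 3). Transcripts with the exon (coding length 1020 bases) took 39.9%, 28.9% and 36.5%, a mean of 35.1% ± 5.65. In mice the insert is known to keep the receptor out of coated pits and to be typical of B cells, whereas the form without it is endocytosed and is typical of macrophages. The ratio of transcripts without the exon to those with it was 1.42, 2.40 and 1.64, and in the second table, made by another estimator, 1.81, 2.72 and 1.96, so replicate 2 was highest in both. The main transcript with the exon also has a longer 3′ end than the one without it, with total lengths of 3544 and 1462 bases, so the shares do not rest on the exon alone. Of the B cell markers, Ighm averaged 5.15 TPM and Cd79b 0.893 TPM, and the next highest was Cd79a at 0.0267 TPM. Whether B cells contributed to either form was not tested. The exon (chr1:170963325-170963465, minus strand) is shown as the stretch that distinguishes the forms.
Fcgr2b cassette exon: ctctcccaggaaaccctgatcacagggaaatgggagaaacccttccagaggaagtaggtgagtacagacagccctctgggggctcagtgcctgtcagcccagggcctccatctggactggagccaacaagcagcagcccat

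Fcgr3 differed between libraries more than any other member, and a transcript with a retained intron differed with it. On the scale of CPM after TMM scaling (a correction of library sizes for composition), which is not divided by length, Fcgr3 had 451, 536 and 359 CPM in replicates 1, 2 and 3, and the highest was 1.49 times the lowest. The retained-intron transcript of Fcgr3 took 3.00%, 16.2% and 1.69% of the TPM of the gene, and 3.62%, 9.95% and 2.64% in the second table. Replicate 2 was the high library in both tables. The posterior SD of this transcript was 117.01, 424.53 and 72.07 counts, on 296.19, 4463.65 and 201.73 expected counts. These were far larger than the posterior SD of the whole gene. The second table gave the transcript 383.68, 2850.28 and 333.54 counts, so the size of its excess in replicate 2 depended on the estimator. On the CPM scale the transcript alone had 13.0, 83.7 and 5.82 CPM in replicates 1, 2 and 3. With the counts of this transcript in the first table left out, Fcgr3 had 438, 453 and 353 CPM. Replicate 2 was still highest, and the ratio of highest to lowest was 1.28. This calculation was chosen after the values of the transcript were seen.
The retained stretch that opens this transcript (106 bases, chr1:171057949-171058054, minus strand) shares no window of 31 bases with any other gene's transcripts.
Fcgr3 retained intron part: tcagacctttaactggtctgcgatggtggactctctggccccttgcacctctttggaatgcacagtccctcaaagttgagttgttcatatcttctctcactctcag
By share of the TPM of their gene, the other 5 of the 6 retained-intron transcripts of the set were lowest in replicate 2. Only 3 of the 6 averaged 1 TPM or more, of which 2 were lowest there. Over 910 retained-intron transcripts of nuclear protein-coding genes at 1 TPM or more, 46.5% were lowest and 33.3% highest by this share in replicate 2. The main coding transcript (coding length 801 bases) took 88.5%, 79.1% and 89.0% of the TPM of the gene, and a form that lacks 3 coding bases (cag, chr1:171057946-171057948) took 8.49%, 4.71% and 9.28%.

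The remaining receptors had simpler transcript pictures. Fcgr4 has a single annotated transcript. The coding transcript of Fcgr1 took 89.6%, 96.7% and 93.9% of the TPM of the gene in replicates 1, 2 and 3. The nonsense-mediated decay transcript took 6.58% ± 3.55 (SD, n = 3), but 25.8% ± 11.6 in the second table, so its share depended on the estimator.

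**Figure D2:**
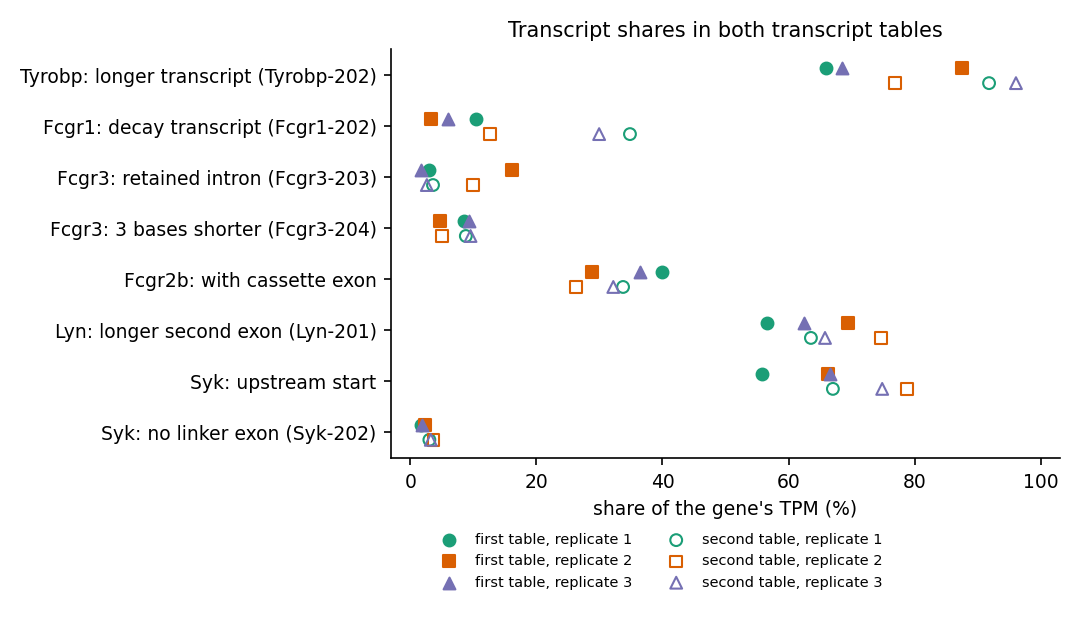
Share of the gene's TPM (%) for 8 transcripts or groups of transcripts, in replicates 1 to 3, with filled symbols for the first transcript table and open symbols for the second. The tables lie close for Fcgr2b and for the shorter Fcgr3 form, both place the Fcgr3 retained-intron share highest in replicate 2, and they differ for Tyrobp and for the Fcgr1 decay transcript.

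Per length, each adaptor had more RNA than any single receptor in each library. Tyrobp, the adaptor known as DAP12 that serves Trem2 and many other receptors (ENSMUSG00000030579.10, chr7:30413760-30417585, plus strand), had 752, 1050 and 729 TPM, a mean of 844 ± 179 (SD, n = 3). Fcer1g, the Fc receptor gamma chain that carries the signal of Fcgr1, Fcgr3 and Fcgr4 (ENSMUSG00000058715.11, chr1:171229572-171234365, minus strand), had 554, 710 and 434 TPM, a mean of 566 ± 138. Tyrobp exceeded Fcer1g in each library, by 0.58 ± 0.16 log2 TPM. Fcer1g in turn exceeded the summed TPM of the 3 receptors it serves, 1.91, 1.54 and 1.61 times in replicates 1, 2 and 3, a difference of 0.75 ± 0.17 log2 TPM, against -0.77 on log2 CPM, where its short transcript counts for less. These are RNA levels per length and give no count of protein chains.

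A search for the ITAM, in which 2 tyrosine codons are each followed at the third codon by one for leucine or isoleucine, matched once in Fcer1g and once in Tyrobp and in none of the coding sequences of the other 7 genes. In Fcer1g it covers codons 65 to 79 over 2 exons (chr1:171229889-171230072, minus strand). In Tyrobp it covers codons 92 to 106 of the shorter coding transcript, over 2 exons (chr7:30415670-30417382, plus strand). A single transcript of each gene was searched, and the longer Tyrobp transcript was not. The sequences are shown 5′ to 3′ with the tyrosine codons, on which Syk docks once they are phosphorylated, in capitals.
Fcer1g ITAM: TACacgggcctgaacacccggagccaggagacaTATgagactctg
Tyrobp ITAM: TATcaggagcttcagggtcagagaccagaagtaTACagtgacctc

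Fcer1g reads were nearly all from its main coding transcript, which took 99.5%, 99.7% and 99.5% of the TPM of the gene. Tyrobp was divided between coding transcripts that differ in little more than their ends, and the estimators disagreed on them. Their annotated coding lengths were 421 bases for the longer transcript, which is not a whole number of codons, and 342 for the shorter. The longer, of 597 bases against 564, took 66.0%, 87.5% and 68.5% in replicates 1, 2 and 3 of the first table, and 91.8%, 76.9% and 96.1% of the second. Replicate 2 was thus the highest library in one table and the lowest in the other, and no difference in this share between libraries is reported.

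Syk and Lyn, the kinases of the set, stood in the same order in every library. Syk, which binds doubly phosphorylated ITAMs (ENSMUSG00000021457.14, chr13:52583173-52648792, plus strand), had 60.4, 90.2 and 74.5 TPM, a mean of 75.0 ± 14.9 (SD, n = 3). Lyn, a Src-family kinase that phosphorylates ITAMs and ITIMs (ENSMUSG00000042228.14, chr4:3678115-3813122, plus strand), had 42.6, 48.8 and 38.3 TPM, a mean of 43.2 ± 5.30. Lyn was lower than Syk by a difference of -0.78 ± 0.25 log2 TPM (-1.42 ± 0.25 on log2 CPM), and the highest Lyn library lay below the lowest Syk library.

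Lyn was represented by its longer and its shorter coding form together. The longer form took 56.5%, 69.5% and 62.5% of the TPM of the gene in replicates 1, 2 and 3, and the shorter took 40.4%, 29.8% and 33.2%. The ratio of longer to shorter was 1.40, 2.33 and 1.88, and 2.09, 3.10 and 2.58 in the second table, with replicate 2 highest and replicate 1 lowest in both. Of the windows of 31 bases in the longer Lyn form, 695 (20.2%) occurred in the pseudogene Gm11787, which was given 0, 0 and 2.17 expected counts. The overlapping gene Gm26857 on the opposite strand received 107, 90.6 and 329 expected counts, against 6188, 11672 and 7602 of Lyn, and whether counting used strand is not given in the sources used here.

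Syk transcripts came from an upstream and a downstream start. Those from the upstream start, 3 transcripts in the annotation, took 55.8%, 66.3% and 66.5% of the TPM of the gene, a mean of 62.9% ± 6.11 (SD, n = 3), and those from the downstream start the remaining 37.1% ± 6.11. In the second table the upstream share was 67.0%, 78.8% and 74.8%, so replicate 1 was lowest in both tables. The main transcript of each start has a coding length of 1887 bases. The Syk promoter windows of RefSeq (GRCm38.p6, from 250 bases before the start to 50 after it) differed in the letters GAGGAA or, on the other strand, TTCCTC, a core bound by ETS factors such as the one encoded by Spi1. The upstream window held no match and the downstream window held 1, 9 bases before the RefSeq start. The main upstream transcript starts at chr13:52583173, before the upstream window (chr13:52583187-52583486), so the stretch ahead of that start was not searched. The main downstream transcript starts at chr13:52596853, inside the downstream window, and the match lies past that start. Spi1, a macrophage regulator, had 55.3, 87.8 and 60.2 TPM. Promoter windows were found for 7 of the 9 genes, and 5 of their 9 windows (those of Fcgr1, Fcgr3 with 2 starts, Fcgr4 and the downstream one of Syk) held a match, beside 28.3% of 32851 windows of the same length over all genes. The 2 Fcgr3 windows overlap and hold the same match, so it is counted for each of them. A match is no measured binding site. The downstream window is shown (chr13:52596632-52596931, plus strand) with the match in capitals.
Syk downstream promoter: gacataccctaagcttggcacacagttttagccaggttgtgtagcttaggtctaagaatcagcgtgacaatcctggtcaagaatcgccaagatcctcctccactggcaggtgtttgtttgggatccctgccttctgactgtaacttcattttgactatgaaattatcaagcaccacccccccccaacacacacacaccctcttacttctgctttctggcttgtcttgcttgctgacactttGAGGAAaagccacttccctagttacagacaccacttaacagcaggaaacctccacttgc

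An exon of 69 bases in the linker between the SH2 domains and the kinase domain of Syk (chr13:52624708-52624776, plus strand) is known to be skipped in a short form of the kinase. The coding transcript without it took 1.77%, 2.41% and 1.89% of the TPM of the gene in replicates 1, 2 and 3, and 3.04%, 3.71% and 3.27% in the second table. Coding transcripts with the exon took 94.4% ± 2.11 (SD, n = 3), so the long form prevailed in each library.
Syk linker exon: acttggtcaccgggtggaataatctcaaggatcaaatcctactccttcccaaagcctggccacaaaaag

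Plcg2, the phospholipase that cleaves PIP2 downstream of Syk and so releases calcium (ENSMUSG00000034330.10, chr8:117498291-117635142, plus strand), had 15.9, 24.2 and 17.1 TPM, a mean of 19.1 ± 4.49 (SD, n = 3). Syk exceeded it by 1.98 ± 0.12 log2 TPM, with ratios of 3.79, 3.72 and 4.35. Plcg2 has a single annotated transcript of 4298 bases and 33 exons, and its posterior SD was 0 counts.

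Differences between libraries were then examined on CPM after TMM scaling. Counts of all 9 genes varied between libraries beyond Poisson sampling (chi-square index of dispersion on 2 degrees of freedom, Benjamini-Hochberg q under 0.05 over the 13237 genes whose counts averaged 10 or above), and so did 67.9% of all these genes. Among the 5163 genes averaging 1000 counts or above, the depth at which the 9 genes were measured, the share was 87.1%, a bound chosen after the data were seen. The share for the set therefore lies near that of other genes at its depth. Chi-square values ran from 14.8 for Plcg2 (q = 0.00121) to 1433 for Fcgr3. The calls of 4 genes were lost when a library was left out: without replicate 1 Lyn had q = 0.902, without replicate 2 Fcgr1 had q = 0.311, Fcgr4 q = 0.0796 and Plcg2 q = 0.469, and without replicate 3 Plcg2 had q = 0.0603.

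The size of this variation was small. The biological coefficient of variation from edgeR's tagwise dispersion had a median of 11.9% over the set and ran from 10.5% in Plcg2 to 16.7% in Fcgr3, beside medians of 17.5% over all genes tested and 12.1% over the deeper ones averaging 1000 counts or above. The lowest tagwise value over all genes tested was 10.2%, so Plcg2 lay near the floor of this estimate. By DESeq2's gene-wise dispersion the set ran from 3.20% in Plcg2 to 19.5% in Fcgr3. The highest library was within 1.5 times the lowest for 9 of 9 genes, as it was for 72.8% of all genes tested and 91.4% of the deeper ones. Tyrobp had 554, 522 and 503 CPM in replicates 1, 2 and 3, and Fcer1g had 508, 434 and 369 CPM. The adaptors were thus both highest in replicate 1 and lowest in replicate 3, with a ratio of highest to lowest of 1.10 for Tyrobp and 1.38 for Fcer1g. Fcgr2b followed that order as well, with 573, 542 and 502 CPM. Fcgr1 had 207, 187 and 213 CPM and Fcgr4 had 95.3, 81.5 and 89.7 CPM, so these receptors were lowest in replicate 2, where Fcgr3 was highest. Syk had 597, 629 and 667 CPM, the reverse order of the adaptors. Lyn had 271, 219 and 219 CPM, high in replicate 1 alone. Plcg2, with 132, 139 and 129 CPM, was the most even of the set.

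**Figure D3:**
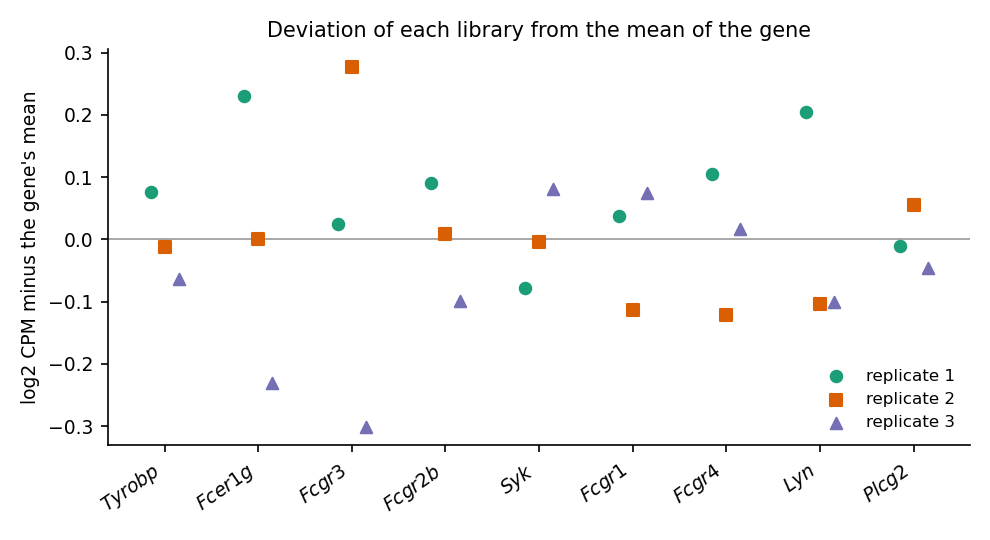
log2 CPM (TMM-scaled) of each library minus the gene's mean over the 3 libraries, for the 9 genes in order of mean TPM. Replicate 1 is the highest point for 5 genes, replicate 3 the lowest for 5, and Fcgr3 spans the widest range, from 0.28 in replicate 2 to -0.30 in replicate 3.

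The median deviation of the set from the mean of each gene was 0.08, -0.00 and -0.06 log2 CPM in replicates 1, 2 and 3, beside -0.02, 0.03 and -0.01 over all 13237 genes. Replicate 1, which was highest for 5 of the 9 genes beside 26.5% of all genes tested, also held the stromal marker RNA, and its neutrophil marker sum was the lowest. The part of these in the result was not tested. The genes whose pattern was most like the mean pattern of the set, by Euclidean distance of the deviations over 3 libraries among 3952 nuclear protein-coding genes at 10 TPM or more, were Plekha1 (distance 0.0089), Gpr162 (0.0094) and Golph3 (0.0117). The members' own median distance from that pattern was 0.167, and 29.7% of the 3952 genes lay within it. The mean deviations of the set were only 0.08, -0.00 and -0.07 log2 CPM in replicates 1, 2 and 3. A gene without any variation would therefore also lie within that distance, and the share does not show how common the pattern was.

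Other genes of the pathway were widely present. Of 91 such genes in 6 lists, 61 averaged 1 TPM or more, 41 (45.1%) 10 or more and 8 at least 100 TPM, beside 18.0% of all nuclear protein-coding genes at 10 TPM or more. Of the 91, 27 (29.7%) reached 10 TPM in the second transcript table, beside 8.91% of all nuclear protein-coding genes. Partner receptors that use Fcer1g or Tyrobp, or signal through a motif of their own, passed 10 TPM for 8 of 14. The highest were Trem2, a lipid and lipoprotein receptor that pairs with Tyrobp (339 ± 48.7 TPM, SD, n = 3), Clec7a, the beta-glucan receptor dectin-1 (162 ± 39.1 TPM), and Itgb2, the beta chain of the complement receptor integrin (105 ± 16.3 TPM). Oscar, a collagen receptor of osteoclasts, had 0 counts in each library.

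Fc receptors outside the set were few. Of 13, Fcgrt, the neonatal receptor that recycles IgG, had 59.5 ± 6.72 TPM (SD, n = 3), Fcrls 32.4 ± 2.32 TPM and Trim21, a cytosolic antibody receptor, 5.78, 9.68 and 5.55 TPM in replicates 1, 2 and 3. Fcamr and Pigr, which bind IgM and polymeric antibody, had 0 counts, and the mast cell receptor chains Fcer1a and Ms4a2 averaged 0.0100 and 0.00333 TPM. The list of 7 other adaptors was led by Hcst, the adaptor DAP10, which carries no ITAM, at 9.71 ± 1.62 TPM. The others on the list, chains of lymphocyte receptors that do carry ITAMs, stayed below 1 TPM, with the B cell receptor chains Cd79b at 0.893 and Cd79a at 0.0267 TPM the highest. Cd3g, a T cell receptor chain, had 0 counts.

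Kinases related to Lyn and Syk passed 10 TPM for 3 of 13. Tec and Btk, which activate phospholipase C gamma, had 18.6 ± 6.19 and 15.6 ± 5.67 TPM (SD, n = 3). The lymphocyte kinase Blk averaged 0.00333 TPM, and Zap70, the T cell relative of Syk, averaged 0.0233 TPM against 75.0 TPM of Syk.

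Signalling adaptors and effectors reached 1 TPM for 23 of 25 and 10 TPM for 16. Grb2, an SH2 adaptor, had 89.7, 244 and 94.0 TPM in replicates 1, 2 and 3, a mean of 143 ± 87.9 (SD, n = 3). Replicate 2 was far above the others on this scale, but Grb2 had 391, 443 and 367 CPM after TMM scaling, a much smaller difference. Rac1, a GTPase of the phagocytic cup, had 120 ± 22.1 TPM and Pik3ap1, an adaptor for phosphoinositide 3-kinase, 110 ± 29.1 TPM. Lat, the T cell linker, was the lowest and stayed below 1 TPM in each library.

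All 19 genes listed as brakes of the pathway reached 1 TPM, beside 42.7% of all nuclear protein-coding genes. Of the 19, 12 reached 10 TPM, beside 18.0%. Not every listed gene acts only as a brake. Sirpa, the inhibitory receptor for CD47, had 511 ± 63.0 TPM (SD, n = 3), close to Fcer1g at 566 ± 138 TPM. Lilrb4a and Pirb, inhibitory receptors with ITIMs, had 131 ± 42.3 and 98.6 ± 30.8 TPM, but near-identical gene copies make these values uncertain. Ceacam1 was the lowest at 2.25 ± 0.798 TPM. Inpp5d, the phosphatase recruited by Fcgr2b, had 37.2, 68.1 and 48.1 TPM.

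**Figure D4:**
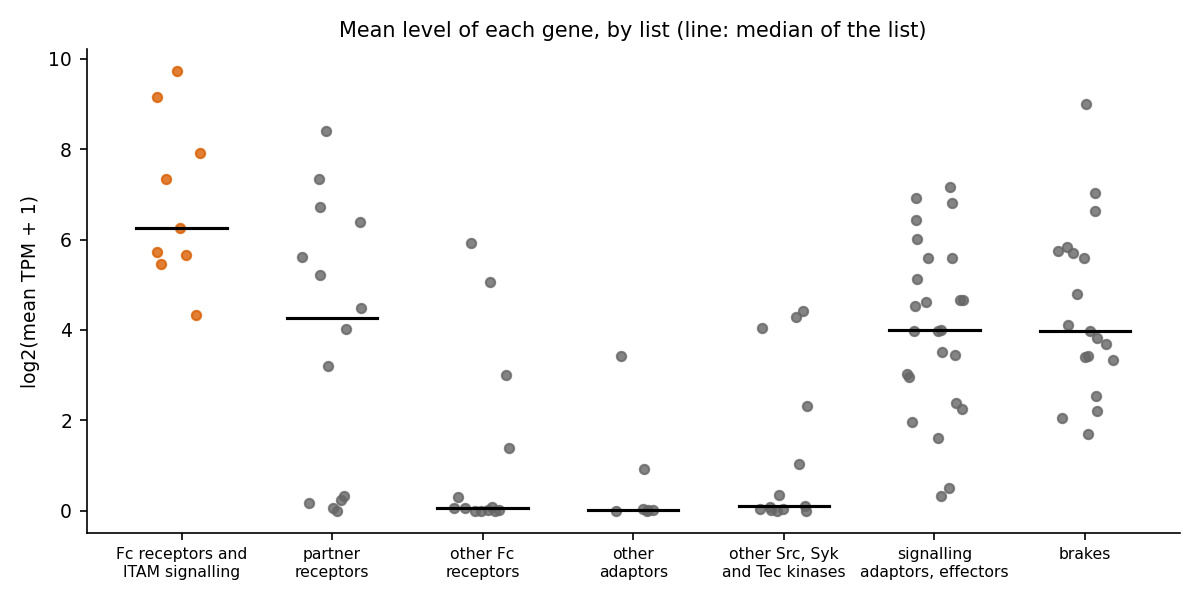
log2(mean TPM + 1) over 3 libraries of each gene, for the 9 Fc receptor and ITAM signalling genes (orange) and 6 lists of other pathway genes (grey), with a line at the median of each list. The 9 genes lie above a mean of 10 TPM throughout, and the other Fc receptors and other adaptors lie mostly near 0.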

How the data were processed

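Cytosolic total RNA of stimulated BMDM, depleted of ribosomal RNA, was sequenced from 1 µg of input as fragments between 250 and 400 nt (per the labels' protocols), giving 3 libraries of 1 group. The deposited files use mm10 with GENCODE M21. The aligner, the quantifiers and any use of strand remain not given in the sources used here. In the deposited expected counts, reads that map to several places are shared out by the authors' estimator. In the deposited TPM these counts are divided by effective length and brought to a fixed total. The deposited percent column gives the share of each transcript in its gene, and other deposited columns give effective length and the posterior SD of counts. A further transcript table, deposited from another estimator and called the second here, was summed to genes.

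Of 81881 rows per gene table, 55536 were annotated genes; the other 26345 (tRNA, spike-in and control rows) held 0.462%, 0.109% and 0.0969% of counts in replicates 1, 2 and 3 and were left out. Expected counts were rounded and tested against Poisson sampling with a chi-square index of dispersion on TMM-scaled library sizes, for genes averaging at least 10 counts, at a Benjamini-Hochberg q of 0.05. TMM factors and dispersions came from edgeR 4.0.16 in R 4.3.3, and alternative size factors from DESeq2 1.42.0. Log2 CPM used a prior count of 0.5. With 1 group there was no contrast for a quasi-likelihood test. On counts simulated between libraries without added variation 0 of the unchanged genes among 13228 were called, and 100% of genes averaging at least 1000 counts and changed 1.25-fold were recovered. The simulated counts held Poisson sampling only, so they do not show how the test treats further spread between libraries. Alternatives were other size factors, no count filter, the second transcript table, TPM scaled to nuclear protein-coding genes, CPM in place of TPM, and leaving out each library. Counting limits cover counting error only. Promoter windows are from RefSeq, and other sequences from the GENCODE M21 transcripts, with positions given on GRCm38.

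Every member is named. For each pathway list the 3 highest genes by mean TPM and the lowest are named, for each marker list the 2 highest, and the 3 genes nearest in pattern; Spi1, Inpp5d, Fcer1a, Ms4a2, Zap70 and the overlapping genes were added after their values were seen. The members and lists were chosen with earlier results of these data known. Some genes that this rule names are not reported here.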

Additional observations from a re-analysis of the deposited data

How the results depend on the processing

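Mean levels of the members depended on the scale. At 100 TPM or more there were 4 of the 9 genes, but 8 when TPM were scaled to nuclear protein-coding genes and 8 on CPM after TMM scaling. CPM are not divided by length, and on that scale 2 of the 6 differences between genes changed sign: Fcer1g minus the sum of Fcgr1, Fcgr3 and Fcgr4 was -0.77, and Fcgr2b minus Fcgr3 was 0.28 log2. In the second transcript table the mean TPM of every one of the 9 genes was lower, with the first 2.03 to 2.41 times the second; Plcg2 then averaged 8.16 TPM, and 8 genes reached 10 TPM. Of 16 transcript shares, 9 moved by more than 1 SD. Pathway genes at 10 TPM or more numbered 27 in the second table, against 41. Of 13237 genes, 8984 varied between libraries, and 4374 to 7555 when each library was left out; the members called were then 6 to 8. DESeq2's gene-wise dispersion gave a median coefficient of variation of 6.90% for the members, against 11.9% from edgeR. No paired analysis was possible because the libraries form 1 group. With 3 libraries no sign-flip test can pass a threshold of 0.05, and depth did not limit the detection of any member.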
